A study of Mus musculus with 13 samples.

Results

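Copying the genome once per division needs 3 things that the transcripts described here supply: a helicase that opens the double helix, polymerases that copy the strands, and a stock of DNA building blocks. The helicase is a ring of MCM proteins, numbered MCM2 to MCM7, that is loaded at origins before S phase and travels with the fork. DNA polymerase epsilon, whose catalytic subunit is POLE, is mainly assigned to the leading strand, and DNA polymerase delta, with the catalytic subunit POLD1, mainly to the lagging strand. TYMS, thymidylate synthase, makes dTMP and is the target of fluorouracil, and RRM1 is the large subunit of ribonucleotide reductase, which turns ribonucleotides into deoxyribonucleotides. Genes of this kind are switched on largely by E2F factors as cells enter S phase, and their RNA is widely read as a mark of proliferation in breast tumours.

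The set holds 9 transcripts, 1 for each of 9 genes, out of 244939 transcripts in the files. They are defined by their Ensembl IDs, with no threshold on a measured value: MCM2 (ENST00000265056.12), MCM4 (ENST00000262105.6), MCM5 (ENST00000216122.9), MCM6 (ENST00000264156.3), MCM7 (ENST00000303887.10), TYMS (ENST00000323274.15), RRM1 (ENST00000300738.10), POLE (ENST00000320574.10) and POLD1 (ENST00000440232.7). The gene names came with that list of IDs. The files do not pair IDs with names, and no human annotation was used here to check them. Each value therefore belongs to a single transcript, and reads that the model gave to other transcripts of the same gene are not in it. All 9 passed the low-count filter, with 74973 transcripts in total.

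RNA was sequenced from 13 mammary tumours, 6 from mice that received OCA by gavage every day at 30 mg per kg and 7 from mice that received its vehicle (DMSO at 40% and polyethylene glycol at 60%). OCA is obeticholic acid, a synthetic bile acid and an agonist of the nuclear receptor FXR. Both groups carried the same tumour, MDA-MB-231, an established human line of triple-negative breast cancer, injected orthotopically into NSG females aged 12 to 13 weeks. The series text calls the hosts immunocompetent, but NSG mice have no mature lymphocytes. The tumours come from 1 cell line, so the libraries sample mice and not different cancers. Treatment began at a volume of 80 to 150 mm3, and the series text gives 14 days of growth. The 6 OCA libraries totalled 44150968 to 50596490 estimated reads each, the 7 vehicle libraries 34015674 to 49844746, and vehicle replicates 2, 3 and 5 were the only ones under 40000000 reads. The label numbers form 2 series, 4340 to 4351 (4 OCA and 3 vehicle tumours) and 4371 to 4385 (2 OCA and 4 vehicle tumours), and what they record is not given. On the first principal component of all transcripts, OCA replicate 2 and vehicle replicates 1 and 4 stand apart from the other 10 libraries.

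None of the 9 transcripts passed the adjusted threshold between OCA and vehicle tumours. In the fit across all transcripts (edgeR's quasi-likelihood test, Benjamini-Hochberg adjustment), 0% of 74973 transcripts had an adjusted p under 0.05, and all 9 members had an adjusted p of 1 after rounding. DESeq2 called 0.256% of all transcripts without a low-count filter and 0.0160% after it, limma-voom called 0%, and none of these fits called any of the 9. The fitted log2 fold change was negative, lower in OCA, for 7 of the 9, against 49.0% of all transcripts tested. Of the 8 with a mean of at least 10 CPM (counts scaled to the size of the library) 7 were negative, against 55.0% of all transcripts at that level. MCM2 and RRM1 had an unadjusted edgeR p under 0.05, both lower in OCA. Among all transcripts 1.40% were lower and 1.37% higher at that limit, and 3.28% were lower among those with at least 10 CPM. In 0 of the 9 did the groups lack overlap, against 0.0440% of all transcripts with every OCA library lowest and 0.0787% with every OCA library highest.

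**Figure D1:**
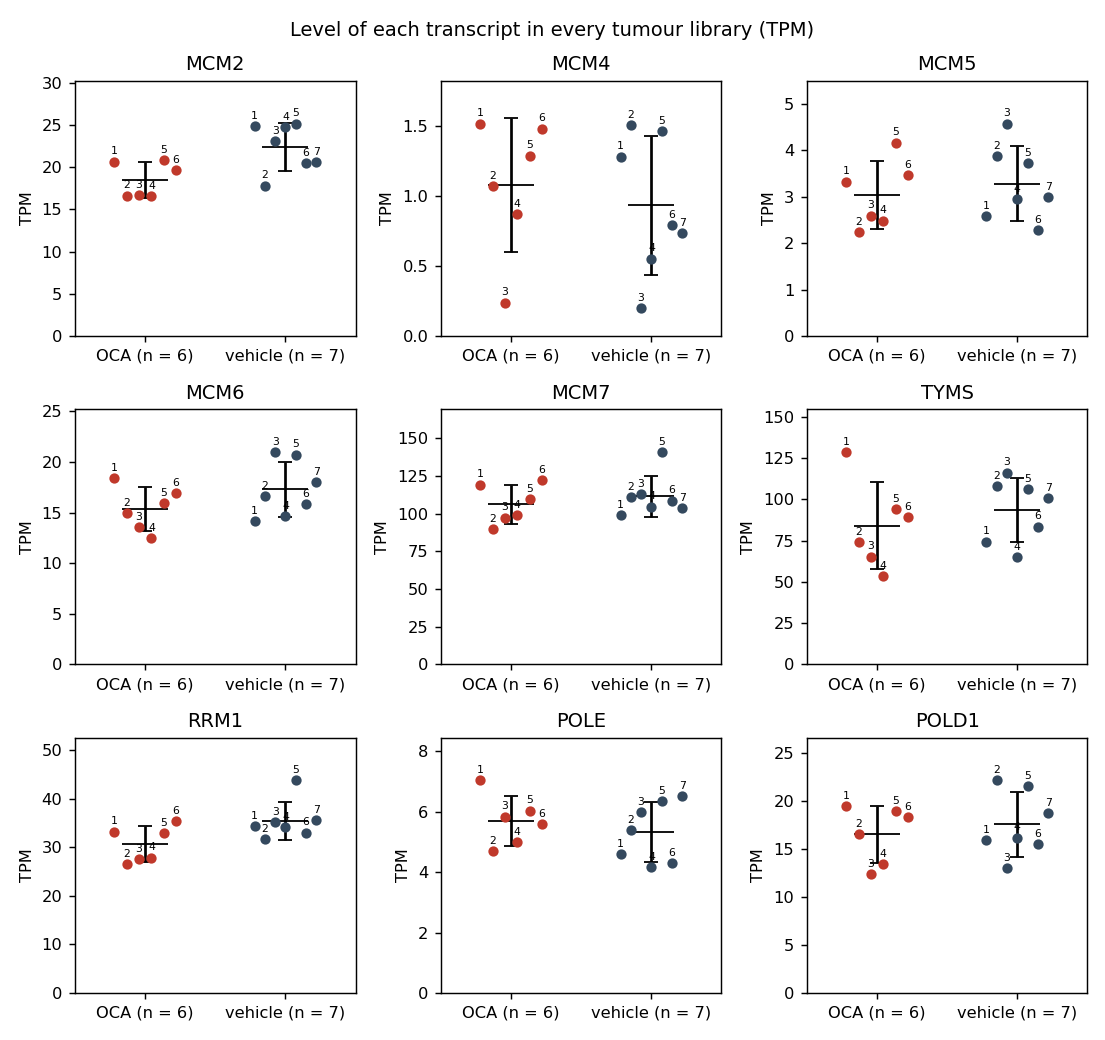
Level of each transcript in TPM (vertical axis, starting at 0) in the 6 OCA and 7 vehicle libraries, each point labelled with its replicate number, with bars for the mean and SD of the group. The 6 OCA values of MCM2 all lie below the vehicle mean of 22.4 TPM, and in every panel the groups overlap.

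Levels are given in TPM, a share of the library corrected for transcript length, which allows the levels of different transcripts to be set side by side. They are levels of the listed transcripts and not of whole genes. Over all 13 libraries the order from the highest mean was MCM7 at 109 TPM, TYMS at 89.2, RRM1 at 33.2, MCM2 at 20.6, POLD1 at 17.1, MCM6 at 16.4, POLE at 5.50, MCM5 at 3.17 and MCM4 at 0.999 TPM. MCM7 lay above 98.7% of the transcripts tested and MCM4 above 37.3%. Some steps in this order were not kept in every library. MCM7 was above TYMS in 11 of 13 libraries, MCM2 above POLD1 in 12 and POLD1 above MCM6 in 10, while each of the other 5 steps held in all 13.

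MCM2, a helicase subunit with a regulatory N-terminal tail that binds histones, showed the smallest p of the set. Its level in OCA tumours was 16.5 TPM at the lowest, 18.1 at the median and 20.8 at the highest, against 17.8, 23.1 and 25.2 TPM in vehicle tumours. All 6 OCA libraries were below the vehicle mean, and 4 of the 7 vehicle libraries, replicates 1, 3, 4 and 5, were above every OCA library. MCM2 averaged 18.5 ± 2.10 TPM over the 6 OCA tumours, against 22.4 ± 2.82 TPM over the 7 vehicle tumours (± SD). The log2 fold change was -0.31 (SE 0.10, 95% interval -0.54 to -0.09; edgeR adjusted p = 1), a ratio of 0.804. On its own, the difference in mean log2 CPM was matched or exceeded in 25 of the 1716 ways to divide the libraries into groups of these sizes (two-sided exact permutation test, p = 0.0146), a p that does not allow for the other transcripts. Exact permutation p-values, here and below, belong to the difference in mean log2 CPM and not to the edgeR log2 fold change beside them. Within the lower label series the log2 fold change was -0.27 (exact permutation p = 0.200) and within the upper -0.36 (exact permutation p = 0.267). Without OCA replicate 2 and vehicle replicates 1 and 4, the libraries apart on the first component, it was -0.23 (exact permutation p = 0.103).

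RRM1, the nucleotide supplier closest to MCM2 in its fold change, measured 26.6 TPM at the lowest, 30.4 at the median and 35.5 at the highest in OCA tumours, against 31.7, 34.4 and 43.7 TPM in vehicle tumours. OCA replicates 2, 3 and 4 were below every vehicle library, and OCA replicates 1, 5 and 6 lay inside the vehicle range. The log2 fold change was -0.25 (SE 0.10, 95% interval -0.46 to -0.04; edgeR adjusted p = 1), with an exact permutation p of 0.0245 for this transcript alone. That p was 0.0543 without OCA replicate 2 or without OCA replicate 3, 0.0505 without OCA replicate 4 and 0.0519 without vehicle replicate 5 (exact permutation tests). Without the 3 vehicle libraries under 40000000 reads the log2 fold change was -0.18 (exact permutation p = 0.0571). Within the lower and upper label series it was -0.20 and -0.25 (exact permutation p = 0.0857 and 0.400, where 0.0286 and 0.0667 are the smallest possible).

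TYMS, the other supplier of nucleotides, was the more variable. It ranged from 53.4 TPM through a median of 81.7 to 129 TPM in OCA tumours, against 64.8, 101 and 116 TPM in vehicle tumours. The lowest and the highest of all 13 values were both in OCA tumours, replicates 4 and 1, so the OCA range holds the whole vehicle range. In mean log2 CPM the difference was -0.22 (exact permutation p = 0.339). The log2 fold change was -0.19 (SE 0.20, 95% interval -0.63 to 0.25). It was -0.35 without OCA replicate 1 and -0.08 without OCA replicate 4, -0.11 without OCA replicate 3 and -0.12 without vehicle replicate 3. TYMS overlaps the gene ENOSF1 on the opposite strand, and no source used here says whether the quantification used strand, so reads of the overlap may be assigned to either. The ratio of TYMS to RRM1 averaged 2.72 ± 0.658 over the OCA tumours, against 2.66 ± 0.567 over the vehicle tumours (± SD, n = 6 and n = 7).

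The other MCM transcripts differed widely in level. MCM7, whose gene also hosts microRNAs in an intron, measured 89.6, 104 and 122 TPM at the lowest, median and highest in OCA tumours, against 99.3, 109 and 141 TPM in vehicle tumours. Its log2 fold change was -0.11 (SE 0.10, 95% interval -0.33 to 0.11), and it was -0.04 without vehicle replicate 5 and -0.06 without OCA replicate 2. MCM6 measured 12.5, 15.5 and 18.4 TPM in OCA tumours, against 14.2, 16.7 and 21.0 TPM in vehicle tumours, with a log2 fold change of -0.21 (SE 0.13, 95% interval -0.48 to 0.07; exact permutation p = 0.143). In both, 1 or 2 OCA libraries exceeded the vehicle mean and the ranges overlapped. Without the 3 libraries under 40000000 reads the log2 fold change of MCM6 was -0.05 (exact permutation p = 0.633). Without the 3 libraries apart on the first component it was -0.30 (unadjusted edgeR p = 0.0496, exact permutation p = 0.0873). MCM5 measured 2.24, 2.96 and 4.17 TPM in OCA tumours, against 2.28, 2.98 and 4.58 TPM in vehicle tumours, so its medians nearly coincide, and its log2 fold change was -0.15 (SE 0.19, 95% interval -0.57 to 0.27). With each library left out in turn it ran from -0.26, without OCA replicate 5, to -0.04, without vehicle replicate 3.

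MCM4 stood apart by its low and uneven level. It measured 0.238, 1.18 and 1.52 TPM at the lowest, median and highest in OCA tumours, against 0.199, 0.789 and 1.51 TPM in vehicle tumours. Only 43.2 to 276 estimated reads in OCA libraries and 31.1 to 253 in vehicle libraries support these values, against 9966 to 12249 and 9044 to 11673 for MCM7. OCA replicate 3 and vehicle replicate 3 were the lowest, at 0.238 and 0.199 TPM, while the other 11 libraries lay between 0.552 and 1.52 TPM. The log2 fold change of MCM4 was 0.18 (SE 0.47, 95% interval -0.83 to 1.19), wide enough to hold a 2-fold change in the positive direction. It was 0.00456 without vehicle replicate 3 and 0.40 without OCA replicate 3, and the difference in mean log2 CPM, 0.21 over all libraries, was -0.12 without vehicle replicate 3. Neither the size nor the sign of the MCM4 value is therefore settled. For each of the other 8 transcripts the interval held no 2-fold change in either direction.

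Since the helicase uses its 6 different subunits in equal number, the levels of the 5 MCM transcripts were also added. MCM3 was not part of the set. The sum averaged 144 ± 17.5 TPM over the OCA tumours, against 155 ± 17.2 TPM over the vehicle tumours (± SD, n = 6 and n = 7), a ratio of 0.927 and a difference smaller than either SD. The difference of -11.3 TPM was -5.25 TPM without vehicle replicate 5 and -7.41 TPM without OCA replicate 2. It was -1.87 TPM without the 3 vehicle libraries under 40000000 reads, -3.08 TPM within the lower label series and -17.6 TPM within the upper. MCM7 made up 73.7% ± 1.42 of the sum in OCA tumours and 71.7% ± 1.70 in vehicle tumours, MCM2 12.8% ± 0.607 and 14.5% ± 2.00, MCM6 10.7% ± 0.856 and 11.1% ± 1.15. MCM5 and MCM4 took 2.10% ± 0.337 and 0.731% ± 0.285 in OCA tumours, against 2.10% ± 0.446 and 0.599% ± 0.308 in vehicle tumours. The transcript levels of the listed IDs are thus far from equal, and how many reads of each gene went to its other transcripts was not analysed here. The ratio of MCM2 to MCM6 was 1.75 in vehicle replicate 1 and 1.69 in vehicle replicate 4, and between 1.07 and 1.32 in the other 11 libraries. These 2 vehicle libraries are among those apart on the first component, and the third such library, OCA replicate 2, had a ratio of 1.11.

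The catalytic subunits of both polymerases showed no difference that passed a threshold. POLE measured 4.70, 5.71 and 7.03 TPM at the lowest, median and highest in OCA tumours, against 4.16, 5.40 and 6.52 TPM in vehicle tumours, with a log2 fold change of 0.06 (SE 0.13, 95% interval -0.22 to 0.34). This positive sign turned without OCA replicate 1, the highest library, at -0.01, and within the upper label series, at -0.15. In mean log2 CPM the difference without OCA replicate 1 was 0.000497. POLD1 measured 12.3, 17.4 and 19.5 TPM in OCA tumours, against 13.0, 16.2 and 22.1 TPM in vehicle tumours, with a log2 fold change of -0.12 (SE 0.15, 95% interval -0.44 to 0.19), which was -0.04 without OCA replicate 3. POLD1 was 2.92 ± 0.501 times the level of POLE over the OCA tumours, against 3.36 ± 0.651 times over the vehicle tumours (± SD, n = 6 and n = 7). The lowest ratios were those of OCA replicate 3 (2.12) and vehicle replicate 3 (2.18), the libraries that were also lowest in MCM4, and the other 11 libraries lay between 2.69 and 4.10.

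**Figure D2:**
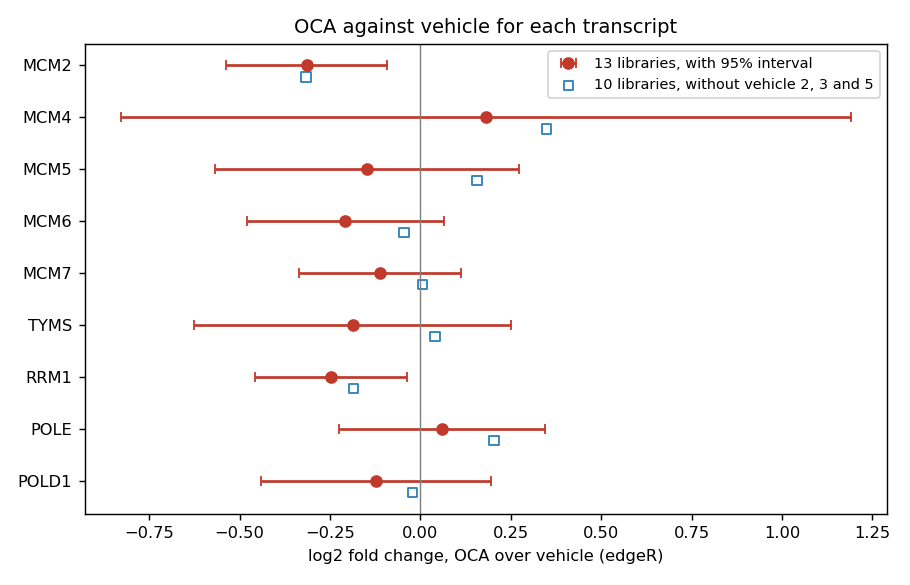
Log2 fold change of OCA over vehicle (horizontal axis) for each transcript by edgeR, as filled points with 95% intervals over 13 libraries and as open squares without vehicle replicates 2, 3 and 5. The intervals of MCM2 and RRM1 lie below 0 before adjustment, and the open squares of MCM5, MCM7 and TYMS move to the positive side.

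As a list, the 9 had a median log2 fold change of -0.15, with values from -0.31 to 0.18, against 0.01 over all transcripts tested and -0.02 over those with at least 10 CPM. No test was made of this median. Without vehicle replicates 2, 3 and 5, the libraries of lowest depth, the median was 0.01. The log2 fold changes of MCM5, MCM7 and TYMS were then 0.16, 0.01 and 0.04, while MCM2 stayed at -0.32 (exact permutation p = 0.0333). In mean log2 CPM the differences of MCM7 and TYMS stayed negative, at -0.0068 and -0.0077, while that of MCM5 was 0.12. Within the lower label series, which holds none of those 3 libraries, the median was -0.03, and within the upper series it was -0.22. In bulk tumours fewer dividing cells and less RNA per cell cannot be told apart, and reads of host cells were not separated here.

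Across the libraries, the level of most of these transcripts fell as depth rose, least so for MCM4 and MCM2. Vehicle replicate 5 had the lowest total, 34015674 reads, and the highest summed MCM level, 192 TPM. OCA replicate 2 had the highest total, 50596490 reads, and the lowest sum, 125 TPM. This library and vehicle replicates 1 and 4, the next deepest, are also those apart on the first component. Pearson's r between log2 CPM and total reads over the 13 libraries ran from -0.74 for MCM5 to -0.06 for MCM4, with a median of -0.58. Over all transcripts with at least 10 CPM the median r was 0.01, and 4.90% of them had an r below -0.58. MCM2 had an r with depth of -0.57 within OCA and 0.22 within vehicle tumours. With the position on the first component, r over the 13 libraries ran from -0.76 for POLE to 0.06 for MCM2. Depth and that component were not separated. These are descriptions over libraries that share their depth and scaling, and the low totals occurred in vehicle libraries only. The part of depth in the differences above was examined only by leaving those libraries out. The share of reads on transcripts of at least 4000 bases, which can vary with RNA quality, averaged 28.03% ± 0.743 in OCA tumours and 26.62% ± 0.564 in vehicle tumours (± SD, n = 6 and n = 7). Since this share differed between the groups, its r over the 13 libraries also holds the group difference of each transcript. That r was -0.69 for MCM2, whose r with depth was -0.25, and -0.55 for RRM1. The median of the 9 was -0.29, against -0.03 over all transcripts with at least 10 CPM. Within the groups the r of MCM2 was -0.10 in OCA and -0.64 in vehicle tumours. That of RRM1 was -0.03 in OCA and -0.33 in vehicle tumours. Among the 9, r within OCA tumours ran from -0.63 for MCM4 to 0.51 for POLE. Within vehicle tumours it ran from -0.64 for MCM2 to 0.35 for POLD1, with MCM5 at -0.54 and MCM7 at -0.38. The part of this share in the differences of MCM2 and RRM1 was not tested.

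**Figure D3:**
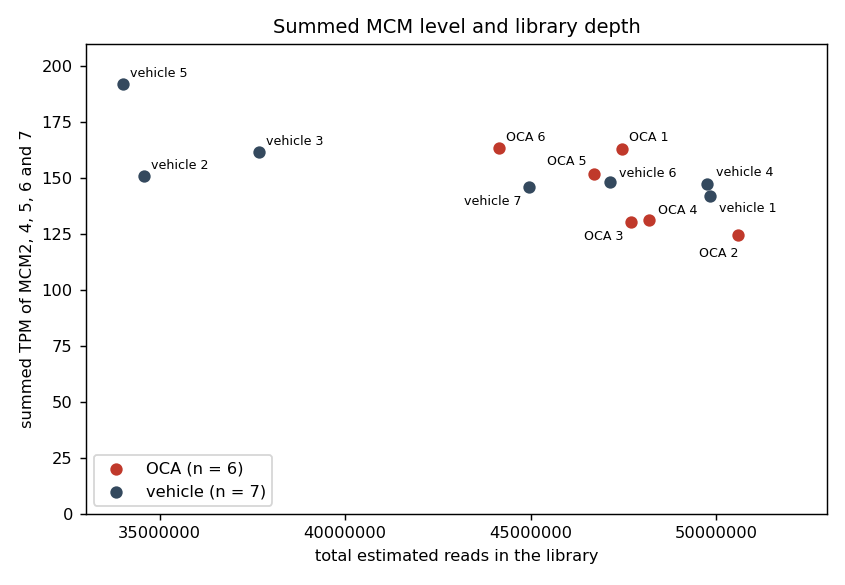
Summed TPM of the 5 MCM transcripts (vertical axis, starting at 0) against the total estimated reads of each library (horizontal axis), for 6 OCA and 7 vehicle libraries. Vehicle replicate 5 sits at the upper left with 192 TPM and OCA replicate 2 at the lower right with 125 TPM.

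Within each treatment group, most pairs of the 9 transcripts rose and fell together from tumour to tumour. In the OCA group, replicates 2 and 4 were among the 3 lowest libraries for all 9 transcripts and replicate 3 for 8. With 6 libraries the remainder are the 3 highest, so replicates 1 and 5 were among these for all 9 and replicate 6 for 8. In the vehicle group, replicate 5 was among the 3 highest for all 9, and replicates 4 and 6 were among the 3 lowest for 7 each. The spread within a group differed among the members. In OCA tumours the coefficient of variation of TPM was 11.4% for MCM2, 12.2% for RRM1 and MCM7, 31.5% for TYMS and 44.5% for MCM4. In vehicle tumours it was 12.6% for MCM2, 11.1% for RRM1, 12.3% for MCM7, 20.7% for TYMS and 53.2% for MCM4. For MCM5 it was 24.0% in OCA and 24.7% in vehicle tumours. MCM6, POLE and POLD1 lay between 14.1% and 19.1% in both groups. The same measure over all transcripts was not computed. For 8 of the 9 the dispersion fitted by edgeR was below the trend for transcripts of like abundance, and TYMS was just above it, at a biological coefficient of variation of 26.6% against 25.6%. How often a dispersion lies below the trend among all transcripts tested was not computed.

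**Figure D4:**
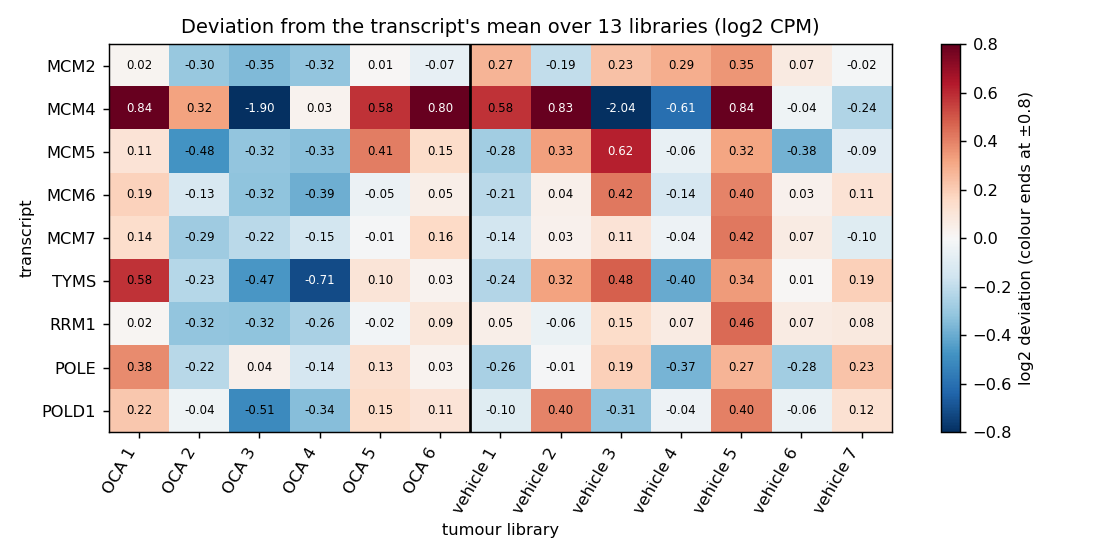
Deviation of each transcript (rows) in each library (columns, OCA left of the line and vehicle right) from its mean over the 13 libraries, in log2 CPM, with red above and blue below the mean. OCA replicates 2, 3 and 4 are mostly blue and vehicle replicate 5 is red in all 9 rows.

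All 36 pairs of these transcripts had a positive Pearson's r of log2 CPM over the 13 libraries, from 0.02 to 0.90, with a median of 0.58 (median Spearman's rho 0.50). Over all pairs of the 14710 transcripts with at least 10 CPM the median r was 0.02, and 7.27% of pairs reached 0.5, against 22 of the 36 here. The pairs share libraries, depth and scaling, they are not independent, and no p was computed. The closest pair was MCM6 and TYMS (r = 0.90, rho = 0.94), with 0.97 in the 6 OCA and 0.87 in the 7 vehicle tumours. RRM1 went with MCM7 (r = 0.87, rho = 0.75) and with MCM2 (r = 0.86, rho = 0.73). POLD1 and MCM4 (r = 0.79, rho = 0.77) stood at 0.59 without OCA replicate 3 and vehicle replicate 3, and without the 3 libraries under 40000000 reads POLD1 had r = 0.88 with MCM6 and 0.84 with TYMS, against 0.75 with MCM4. The r of MCM4 with the other 7 members was 0.02 to 0.30 over all 13 libraries. Without OCA replicate 3 and vehicle replicate 3 it was 0.59 with TYMS, 0.54 with POLE, 0.53 with MCM5 and 0.47 with MCM7. It was then 0.42 with MCM6 and 0.20 with RRM1, against 0.23 with RRM1 over all libraries. The pair of MCM4 and MCM2 was not computed without these libraries. The median r was 0.76 within OCA tumours, where all 36 pairs were positive, and 0.33 within vehicle tumours, where 28 were. That difference between the groups was not tested, and the values over all pairs were not computed within a group. The lowest r within vehicle tumours was -0.36, for MCM2 and POLD1. Without the 3 libraries under 40000000 reads, 35 of the 36 pairs were positive, with a median of 0.53.

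**Figure D5:**
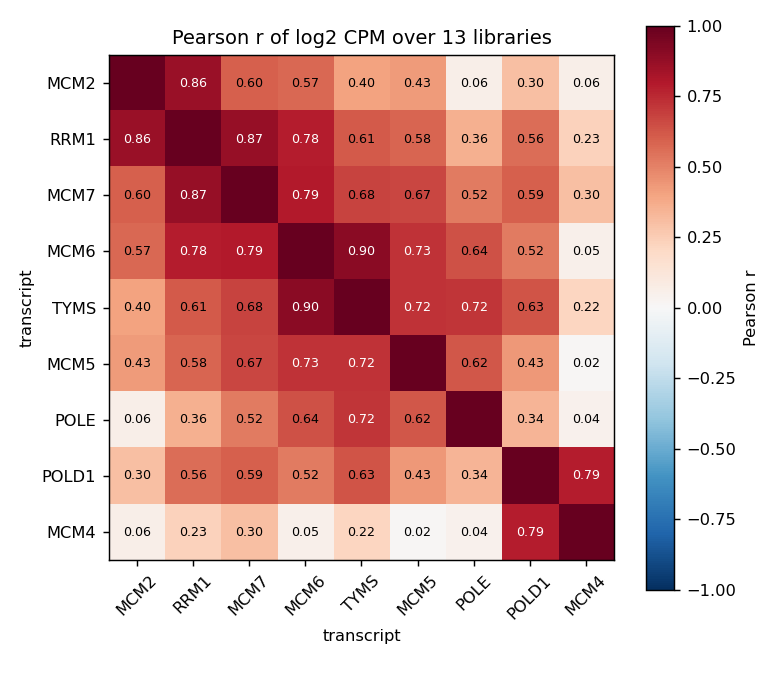
Pearson's r of log2 CPM over the 13 libraries for each pair of transcripts (rows and columns), printed in each cell. The block of MCM6, TYMS, MCM5, MCM7 and RRM1 holds values of 0.58 to 0.90, and the MCM4 row stays at 0.30 or below except with POLD1, at 0.79, which was 0.59 without OCA replicate 3 and vehicle replicate 3.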

How the data were processed

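The authors' files hold, per the file headers, the estimated count of reads and the TPM of every transcript in each tumour, with its length and effective length in bases. FastQC, STAR, Salmon, DESeq2 and the build GRCh38.p14 are named in the submitters' processing notes, and their versions and the annotation are not given in the sources used here. RNA had, per the labels' protocols, an integrity number above 6, and reads were paired, of 150 bases. Libraries were taken as separate animals and numbered within each group in accession order.

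Estimated counts were rounded, filtered (edgeR 4.0.16, filterByExpr, minimum count 10, minimum total 15), scaled by TMM and tested by the robust quasi-likelihood F test in R 4.3.3. P-values were adjusted over all transcripts tested, with a threshold of 0.05. The SE is the size of the log2 fold change over the square root of F, and the 95% intervals are not adjusted for multiple testing. The deposited TPM values were used for levels and, on a log2 scale, in limma alternatives. All 9 transcripts are named, whatever their values. The members, tests and alternatives were chosen with earlier results of these data known. Lists of other replication genes and of cell markers, written by gene symbol, were not used here, since no table pairs these IDs with symbols. No sequence is shown for the same reason. Alternatives were DESeq2 1.42.0, limma 3.58.1, other scalings and filters, covariates and leaving out libraries. Exact permutation tests of the mean log2 CPM of single members, two-sided over all divisions of the libraries, were added after seeing the data.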

Additional observations from a re-analysis of the deposited data

Results flagged for a closer look

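Vehicle replicate 5 lay far above the other vehicle libraries in 3 of the 20 combinations of measure and group examined by Dixon's test at the 95% level. Its MCM7 level was 141 TPM, its RRM1 level 43.7 TPM and its summed MCM level 192 TPM. MCM7 is the main part of that sum, so these are not separate observations, and chance alone gives about 1 in 20. Leaving this library out moved the log2 fold change of MCM7 to -0.04, against -0.11 with all libraries, that of RRM1 to -0.19 (exact permutation p = 0.0519), against -0.25, and the summed MCM difference, OCA minus vehicle, to -5.25 TPM, against -11.3 TPM.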

How the results depend on the processing

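No paired analysis was made, since the libraries were taken as separate mice that each received either OCA or vehicle. The count of 0 of the 9 transcripts past the adjusted threshold held in all 34 alternatives. Over all transcripts, DESeq2 called 410 without a low-count filter and 12 with it, and edgeR called 1 without the 3 libraries apart on the first component. Fits that left out 1 library called 0 to 1. MCM2 kept a negative log2 fold change in all of them, from -0.37 to -0.23, with an unadjusted p under 0.05 in 31. RRM1 did so from -0.29 to -0.18, with 27. The sign of the edgeR log2 fold change turned for MCM5 (0.17) and TYMS (0.0146) within the lower label series, and for POLE (-0.15) within the upper. It also turned for MCM5 (0.16), MCM7 (0.00542) and TYMS (0.0407) without the 3 libraries under 40000000 reads. For POLE it turned without OCA replicate 1 as well (-0.0114). Of these turns, mean log2 CPM shared those of MCM5 (0.14 and 0.12) and of POLE within the upper series (-0.14). It kept its sign for TYMS (-0.058 and -0.0077), MCM7 (-0.0068) and POLE without OCA replicate 1 (0.000497). With each library left out in turn POLE ran from -0.0114 to 0.112, and MCM4 from 0.00456 to 0.396 (in mean log2 CPM its sign turned, -0.116, without vehicle replicate 3). The cause of these turns was not tested. The median log2 fold change of the 9 ran from -0.22 to 0.01 (-0.0916 without OCA replicate 4 and -0.0951 without OCA replicate 3). The summed MCM difference, OCA minus vehicle, ran from -17.6 TPM within the upper label series to -1.87 TPM without the 3 libraries under 40000000 reads. In CPM per kilobase that sum was 0.902 times the vehicle level. MCM4 was filtered out in 3 alternatives, and its low counts limit what its interval can show.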
